A study of Arabidopsis thaliana with 12 samples.

Results

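MAC3B, Y14 and FY are 3 Arabidopsis thaliana genes that act on messenger RNA inside the nucleus, and their levels were followed across suspensor nuclei, proembryo nuclei, whole-embryo cells and whole-embryo nuclei of early embryos. They were chosen by symbol, as the probe sets matched to exactly 1 gene named MAC3B (AT2G33340), Y14 (AT1G51510) or FY (AT5G13480). Each had 1 probe set, so the 3 genes were 3 of the 13350 genes with a named probe set on the Affymetrix ATH1 array. They had been picked with results of the comparisons among nuclei known. Their differences among suspensor, proembryo and whole-embryo nuclei are therefore given as a description with standard errors and no test.

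The study profiled Col-0 plants grown in long days (16 h light, 8 h dark) on 12 arrays, 3 in each of 4 groups. Suspensor nuclei, proembryo nuclei and whole-embryo nuclei came from embryos of 2 to 16 cells, whose ovules were fixed in paraformaldehyde before nuclei of tissue-specific marker lines were sorted by flow cytometry. The labels do not name the promoters that drive those markers. Whole-embryo cells were embryos of 8 to 32 cells that had been pressed from their ovules and washed, and their cellular RNA was purified with a PicoPure kit. All RNA went through 1 round of amplification with biotin labelling. Cells and nuclei thus differ at once in stage, fixation and extraction, and these cannot be told apart. The titles call the replicates biological without naming separate plants or harvests, so that p-values measure only the spread between these arrays.

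The suspensor is the short file of cells that anchors the early embryo and feeds it, and the proembryo is the group of cells above it that forms most of the plant. MAC3B is a U-box ubiquitin ligase related to yeast Prp19. With its close copy MAC3A it belongs to the MOS4-associated complex, the plant counterpart of the Prp19 complex that helps activate the spliceosome. Y14 binds MAGO, and the pair sits with eIF4A-III in the core of the exon junction complex, the mark that splicing leaves where exons have been joined. FY is a WD-repeat protein related to yeast Pfs2p, a part of the machinery that cleaves and polyadenylates the 3′ end of transcripts. FY is also known for working with FCA in the control of flowering time.

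Brightness was judged only against the array median, and no detection call was used. In suspensor nuclei Y14 read 148 to 179, where the array medians were 83.4 to 103. Each probe set lay above the median of its own array on every 1 of the 12 arrays, so the filter on dim probe sets removed none of them. The deposited values are linear intensities, and a probe set's brightness depends on its own probes, so no gene's level is set against another's. Differences are on the log2(intensity + 16) scale.

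MAC3B was lowest in the suspensor. Its intensities were 2004, 1790 and 1823 in suspensor nuclei, 3501, 3870 and 2977 in proembryo nuclei, 3006, 3011 and 4404 in whole-embryo cells, and 3357, 4205 and 3421 in whole-embryo nuclei. The 3 suspensor arrays were the 3 lowest of the 12, while the arrays of the other 3 groups overlapped one another. The brightest suspensor array and the dimmest proembryo array were separated by a ratio of 1.49, and the gap to the dimmest array of whole-embryo nuclei was a ratio of 1.68. On the log2 scale MAC3B averaged 10.88 ± 0.0865 in suspensor nuclei, 11.75 ± 0.190 in proembryo nuclei and 11.84 ± 0.179 in whole-embryo nuclei (SD, n = 3 each). Of the 3 genes, MAC3B had the smallest SD among the suspensor arrays.

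Y14 was also lowest in the suspensor. Its intensities were 164, 148 and 179 in suspensor nuclei, 218, 404 and 396 in proembryo nuclei, 218, 303 and 438 in whole-embryo cells, and 291, 309 and 294 in whole-embryo nuclei. Again the suspensor arrays were the 3 lowest of the 12. The gap was narrow on the side of proembryo replicate 1, which stood 1.22 times above the brightest suspensor array, and wider for whole-embryo nuclei, at 1.63 times. Y14 averaged 7.49 ± 0.122 on the log2 scale in suspensor nuclei, 8.42 ± 0.480 in proembryo nuclei and 8.30 ± 0.0432 in whole-embryo nuclei (SD, n = 3 each). The spread of Y14 thus differed between groups: the arrays of whole-embryo nuclei lay close together, and those of the proembryo and of the whole-embryo cells lay far apart.

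FY was low in the suspensor and also on 1 array of whole-embryo cells. Its intensities were 228, 170 and 270 in suspensor nuclei, 356, 446 and 401 in proembryo nuclei, 332, 183 and 308 in whole-embryo cells, and 420, 388 and 438 in whole-embryo nuclei. Suspensor nuclei gave 2 of the 3 lowest arrays, and replicate 2 of the whole-embryo cells gave the other. The suspensor arrays lay below all proembryo arrays (270 at most, against at least 356), and below all arrays of whole-embryo nuclei by a ratio of at least 1.44. FY averaged 7.88 ± 0.313 on the log2 scale in suspensor nuclei, 8.70 ± 0.157 in proembryo nuclei and 8.75 ± 0.0862 in whole-embryo nuclei (SD, n = 3 each).

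**Figure D1:**
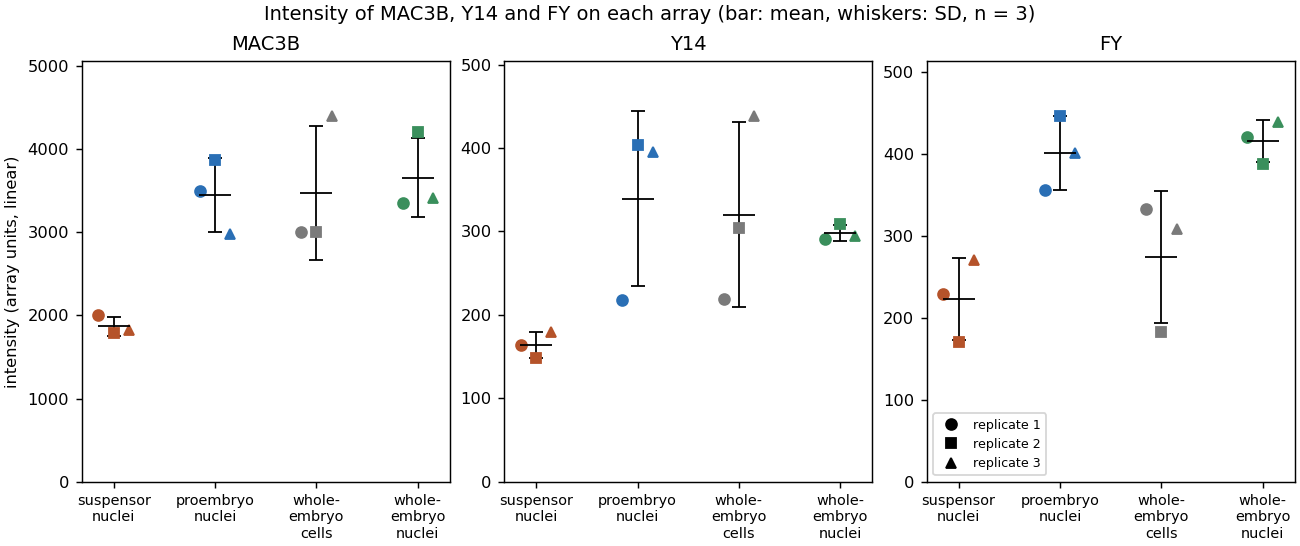
Linear intensity (y axis, from 0) of MAC3B, Y14 and FY on each of the 12 arrays, grouped on the x axis as suspensor nuclei, proembryo nuclei, whole-embryo cells and whole-embryo nuclei; symbols mark replicates 1 to 3, the bar is the mean and the whiskers the SD (n = 3). The suspensor arrays reach 2004 for MAC3B, 179 for Y14 and 270 for FY, and in each panel they lie below every proembryo array and every array of whole-embryo nuclei.

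Suspensor nuclei against proembryo nuclei compares the 2 lineages of the early embryo. MAC3B differed by -0.87 (SE 0.217), 1.83-fold lower in suspensor nuclei. Y14 differed by -0.94 (SE 0.285), 1.92-fold lower, and FY by -0.82 (SE 0.261), 1.77-fold lower. The 3 differences lay closer to one another than the smallest of these standard errors, so the data do not order the genes by the size of the difference. All 3 genes had every suspensor array below every proembryo array, as did 9.66% of all probe sets tested. This pattern helped choose the genes, so nothing is read from their count. Between 5.54% and 7.34% of the 12787 probe sets had a lower difference than these genes, which places them in the lower tail of the array and not at its end.

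Suspensor nuclei against whole-embryo nuclei sets the same 3 suspensor arrays against a second group, so the comparison is not independent of the first. MAC3B differed by -0.96 (SE 0.217), a 1.94-fold lower level in suspensor nuclei. Y14 differed by -0.81 (SE 0.285) and FY by -0.87 (SE 0.261), which are 1.75-fold and 1.83-fold lower levels. No array overlapped for any of the 3 genes, against 9.74% of all probe sets tested with every suspensor array below those of whole-embryo nuclei. The label of whole-embryo nuclei implies that suspensor nuclei are among them, so a part is set here against a whole. All arrays are on a common scale, so a value is relative to its array and gives no amount per nucleus. In bulk samples such as these, fewer cells of a type and less RNA per cell cannot be told apart.

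Proembryo nuclei and whole-embryo nuclei lay close together for the 3 genes. MAC3B differed by -0.09 (SE 0.217), Y14 by 0.13 (SE 0.285) and FY by -0.05 (SE 0.261). Each difference was smaller than its standard error and the arrays overlapped for all 3 genes. The percentage of all probe sets past the threshold in this comparison was 0.0, by limma with Benjamini-Hochberg adjustment at 0.05, and 402 of 12787 had an unadjusted p under 0.05. Every proembryo array lay below every array of whole-embryo nuclei for 4.38% of the probe sets, and wholly above for 3.86%.

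Whole-embryo cells against whole-embryo nuclei is a contrast outside the comparisons among nuclei from which the genes were picked. The arrays of whole-embryo nuclei did enter a comparison that chose them, as its higher side. That choice can favour high values on those arrays and so pull cells minus nuclei downward. The p-values and intervals below do not allow for it. It was tested with limma across 11867 probe sets. MAC3B averaged 11.75 ± 0.316 on the log2 scale in whole-embryo cells, against 11.84 ± 0.179 in whole-embryo nuclei (SD over 3 arrays each). The difference of -0.09 (SE 0.259, limma adjusted p = 0.864) had a 95% interval of -0.66 to 0.48, so that a ratio of cells to nuclei anywhere from 0.633 to 1.39 fits these arrays. Y14 averaged 8.34 ± 0.478 in whole-embryo cells and 8.30 ± 0.0432 in whole-embryo nuclei, a difference of 0.04 (SE 0.284, limma adjusted p = 0.946) with an interval of -0.58 to 0.67. Neither gene was shown to differ, and neither was shown to be equal, between cells and nuclei.

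FY had the largest difference of the 3 genes between cells and nuclei. It averaged 8.14 ± 0.440 in whole-embryo cells and 8.75 ± 0.0862 in whole-embryo nuclei, and all 3 cell arrays lay below all 3 arrays of nuclei. Of all probe sets tested, 15.2% had the cell arrays wholly below in this way. The difference of -0.61 (SE 0.278), or 1.53-fold, had an unadjusted limma p of 0.0490 and did not pass after adjustment over all probe sets (adjusted p = 0.207). Its 95% interval, unadjusted and with no allowance for the choice of the genes, was -1.22 to -0.0031. By the same test 6.77% of all probe sets passed, 4.05% lower and 2.71% higher in cells. The arrays of cells and suspensor nuclei overlapped for FY and not for MAC3B or Y14, whose cell arrays were all above the suspensor arrays. That difference between the genes was not tested.

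**Figure D2:**
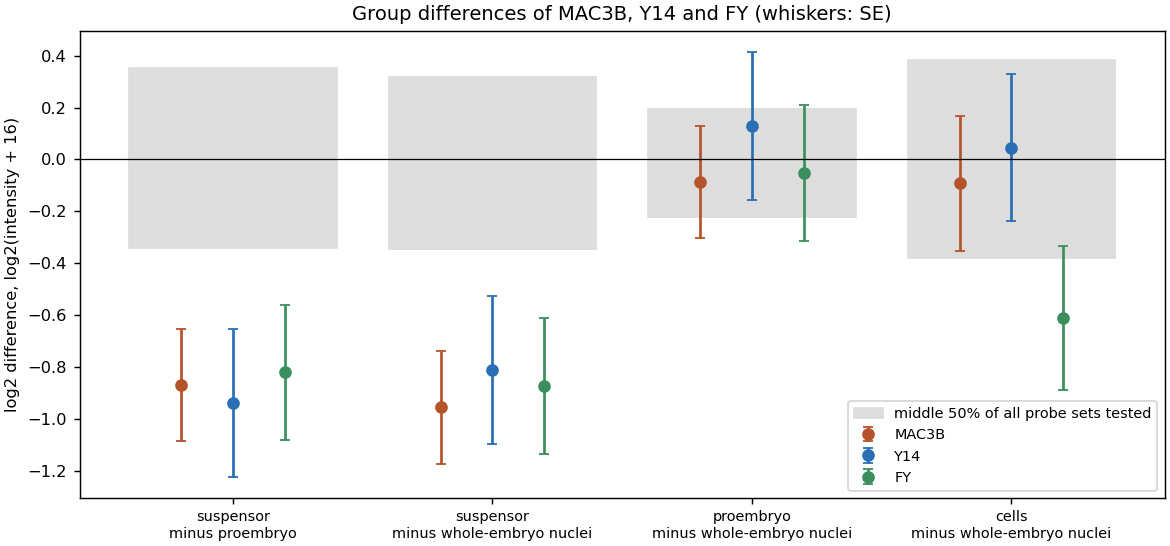
Log2 difference (y axis, on the log2(intensity + 16) scale) of MAC3B, Y14 and FY in 4 comparisons (x axis), with whiskers for the standard error and grey boxes for the middle 50% of all probe sets tested in that comparison. The 3 genes lie between -0.81 and -0.96 in both suspensor comparisons, below the grey box, within it for proembryo against whole-embryo nuclei, and FY alone lies below it, at -0.61, for cells against whole-embryo nuclei.

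The levels can be put in order with these spreads in mind. For MAC3B and Y14 the suspensor stood lowest, and proembryo nuclei, whole-embryo cells and whole-embryo nuclei could not be ordered, since their arrays overlapped. For FY the order of the means was suspensor nuclei, whole-embryo cells, proembryo nuclei and whole-embryo nuclei. The first 2 of these overlapped, as did the last 2, and all cell arrays lay below all proembryo arrays. Replicate 2 was the lowest suspensor array for all 3 genes.

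Across arrays the genes moved together to a degree that depended on whether cells were included. Over the 9 nuclei arrays Pearson's r was 0.816 between MAC3B and Y14, 0.886 between MAC3B and FY and 0.898 between Y14 and FY. Over all 12 arrays it was 0.831, 0.669 and 0.588. The pairs with FY thus had the lower values once the cell arrays were added. The arrays share their groups, their scaling and the choice of the genes, so these values are a description and carry no p.

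Other genes on the array followed these profiles more closely than the 3 genes followed one another. Likeness was measured by Pearson's r of log2(intensity + 16) against 7458 other probe sets with 1 gene. The highest of so many values is nearly bound to exceed that of a single pair. These ranks are thus a description, and nothing is read from the closer genes. Over the 12 arrays Y14 ranked 84 in likeness to MAC3B and FY ranked 429. The closest to MAC3B were AT5G06110 (r = 0.953), AT1G77580 (0.948) and AT2G35605 (0.944). The closest to Y14 were AT2G48100 (0.910), AT5G17160 (0.905) and AT2G33410 (0.886), and the closest to FY were AT2G17240 (0.897), AT2G25920 (0.889) and AT4G17520 (0.878). The annotation used here gives these 9 genes no symbol.

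Over the 9 nuclei arrays the nearest genes were partly others. MAC3B was closest to AT2G27720 (r = 0.976), AT2G35605 (0.974) and AT5G11970 (0.966). Y14 was closest to AT2G48100 (0.950), to YUC4, a flavin monooxygenase of auxin synthesis (0.947), and to AT2G33410 (0.940). FY was closest to AT1G75050 (0.979), to HWS, an F-box protein (0.962), and to AT2G48100 (0.954), which also stood nearest to Y14. AT1G75050 was dim in the suspensor, with a log2 mean of 5.38, below the array medians there. It averaged 7.03 in proembryo nuclei and 6.96 in whole-embryo nuclei, so its r with FY rests in part on dim values. FY itself ranked 11 in likeness to Y14 on these arrays. YUC4 averaged 7.35 on the log2 scale in suspensor nuclei, 8.50 in proembryo nuclei, 7.34 in whole-embryo cells and 8.44 in whole-embryo nuclei, so its cell arrays, unlike those of Y14, averaged near the suspensor.

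The partners of the 3 proteins were measured only in part. MAC3A was the single partner with a symbol on a named probe set. CDC5, PRL1, SKIP, MAC7 and MOS4 for MAC3B, MAGO, EIF4A3 and PYM for Y14, and CPSF160, CPSF100, CPSF73-I, CPSF30, FIPS5, CSTF64, CSTF77, PAPS1, FCA, FPA and FLC for FY have no named probe set here. MAC3A read 367, 247 and 452 in suspensor nuclei, 462, 645 and 560 in proembryo nuclei, 684, 487 and 517 in whole-embryo cells, and 423, 547 and 521 in whole-embryo nuclei. All suspensor arrays of MAC3A lay below those of the proembryo, and 1 of them lay above the lowest array of whole-embryo nuclei. Its difference between suspensor and proembryo nuclei was -0.65 (SE 0.273, limma adjusted p = 0.251), and that between suspensor and whole-embryo nuclei was -0.50 (SE 0.273, adjusted p = 0.431). Neither passed, and in cells against whole-embryo nuclei MAC3A stood at 0.17 (SE 0.257, adjusted p = 0.737).

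AT1G15280, listed beside Y14 among exon junction genes, was dim and scattered. It read 69.7, 155 and 38.8 in suspensor nuclei and 63.2, 95.3 and 75.5 in proembryo nuclei. The limma difference was -0.00 (SE 0.492, adjusted p = 0.998), with an SE larger than that of any of the 3 genes.

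The lowest differences on the lists of MAC3B, Y14 and FY belonged to other genes, which are named here after their values were seen. AT1G10580, on the Prp19 complex list, read 49.5, 5.27 and 7.96 in suspensor nuclei and 84.4, 81.8 and 101 in proembryo nuclei. Its arrays had no overlap, and its difference of -1.70 (SE 0.616, limma adjusted p = 0.171) did not pass. AT2G39260, on the exon junction and nonsense-mediated decay list, read 43.7, 48.3 and 22.6 in suspensor nuclei and 116, 93.0 and 137 in proembryo nuclei. Its arrays did not overlap, and its difference of -1.30 (SE 0.449, limma adjusted p = 0.151) did not pass. AT5G60940, on the cleavage and polyadenylation list, read 8.58, 57.2 and 14.02 in suspensor nuclei and 93.9, 96.5 and 83.8 in proembryo nuclei. It too had no overlap and did not pass, at -1.50 (SE 0.551, limma adjusted p = 0.175). On every suspensor array all of these list genes lay below the array median (83.4, 90.0 and 103). They passed the filter only through arrays of proembryo and whole-embryo nuclei, which favours low suspensor values. Nothing is therefore read from their lack of overlap.

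The wider pathway was followed with 181 listed loci of splicing, exon junction, polyadenylation, autonomous flowering, cap binding and mRNA export. Of these, 63 had a named probe set, among them MAC3B, Y14 and FY, and 53 of the other 60 passed the filter in the nuclei. In suspensor against proembryo nuclei 38 of the 53 stood below 0, with a median of -0.23 against 0.01 over all probe sets, 49.1% of which stood below 0. None passed the limma threshold, which 2.03% of all probe sets passed, 1.34% with a lower and 0.696% with a higher level in the suspensor. At an unadjusted p under 0.05 there were 9. The suspensor arrays lay wholly below those of the proembryo for 10 of the 53 and wholly above for 1. Over all probe sets the shares were 9.66% and 9.61%. Some of the 53, such as AT2G39260 and AT5G60940, passed the filter only through arrays outside the suspensor, which favours low suspensor values. With no filter 42 of 60 list genes stood below 0, with a median of -0.23 against 0.06 over all probe sets.

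By role, the splicing list closest to MAC3B, the Prp19 complex and its associated factors, had 6 of 9 genes below 0 with a median of -0.24. The small nuclear ribonucleoprotein and catalytic proteins of the spliceosome had 18 of 26 below 0 and a median of -0.23. Exon junction and nonsense-mediated decay genes other than Y14 had 4 of 5 below 0 (median -0.13). Cleavage and polyadenylation genes other than FY had 4 of 5 below 0 (median -0.40), and cap binding and export genes had 5 of 7 (median -0.29). MAC3B, Y14 and FY each lay below the median of their own list, as the choice of the genes would have it. No SR splicing regulator of the 20 listed has a named probe set here.

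Of the 53 list genes, 16 had a symbol, and they are described here as a class, outside the rule that chose the other names. In suspensor against proembryo nuclei 11 stood below 0 and 5 above, none past the limma threshold. PRP39, whose yeast counterpart acts with the U1 particle at the 5′ splice site, stood at -0.82 (SE 0.261, adjusted p = 0.116). It read 1355, 825 and 718 in suspensor nuclei and 1683, 1395 and 1932 in proembryo nuclei, without overlap. U2AF35B, the small subunit of a factor that finds the 3′ splice site, stood at -0.88 (SE 0.369, adjusted p = 0.249) with overlapping arrays. On the other side were THO5 of the THO export complex at 0.51, LIS, related to yeast PRP4 and known for its part in egg cell fate, at 0.40, and UPF3 of nonsense-mediated decay at 0.29, with limma adjusted p from 0.379 to 0.778.

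In suspensor against whole-embryo nuclei 44 of the 53 list genes stood below 0, where 50.4% of all probe sets did, and the median was -0.34 against -0.01. With no filter 47 of 60 stood below 0, with a median of -0.33 against 0.06. Of the 53, 11 had an unadjusted p under 0.05 and 1 passed the limma threshold, with a lower level in the suspensor. Of all probe sets 1.56% passed, 0.962% with a lower and 0.594% with a higher level. It was AT1G20580, a locus of the spliceosomal list. It read 435, 308 and 295 in suspensor nuclei and 1266, 1003 and 584 in whole-embryo nuclei, a difference of -1.37 (SE 0.295, limma adjusted p = 0.0306). The count of 1 became 0 without suspensor replicate 2 or 3 and without whole-embryo nuclei replicate 1 or 2, and 3 without suspensor replicate 1. Against the proembryo AT1G20580 stood at -1.13 (adjusted p = 0.0541).

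The arrays lay wholly below those of whole-embryo nuclei for 10 of the 53 genes and wholly above for 3, beside 9.74% and 9.16% of all probe sets. LIS was among the 3 that lay above, at 0.77 (SE 0.295, limma adjusted p = 0.234), as was STIPL1, a spliceosome-associated protein, at 0.42 (SE 0.268, adjusted p = 0.511). LD, a regulator of flowering time in the pathway that also holds FY, differed by -0.65 (SE 0.293, adjusted p = 0.323), with all suspensor arrays below. This was not particular to the suspensor. In proembryo against whole-embryo nuclei LD stood at -0.58 (SE 0.293), with all proembryo arrays below. Between suspensor and proembryo nuclei it stood at -0.07 (SE 0.293, limma adjusted p = 0.930).

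Between proembryo and whole-embryo nuclei the list was centred near 0, like its 3 chosen genes. Of 53 genes 28 stood below 0, beside 51.4% of all probe sets, the median was -0.02, and none passed by limma, with 1 at an unadjusted p under 0.05. The proembryo arrays lay wholly below for 1 list gene, LD, and wholly above for 0, beside 4.38% and 3.86% of all probe sets.

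In whole-embryo cells against whole-embryo nuclei the lists together leaned the other way from FY, but FY's own list did not. Of 54 genes that passed the filter there, 38 stood above 0 and 16 below, where 49.5% of all probe sets stood below, with a median of 0.17 against 0.01 over all probe sets. With no filter 20 of 60 list genes stood below 0, with a median of 0.16 against -0.06 over all probe sets. Above 0 were 8 of 9 Prp19 genes, 19 of 27 ribonucleoprotein and catalytic genes, and 7 of 7 cap binding and export genes. Cleavage and polyadenylation genes other than FY had 3 of 5 below 0 (median -0.05). Exon junction genes other than Y14 also had 3 of 5 below 0 (median -0.03), and LD stood at -0.19. By limma 0 passed the threshold and 12 had an unadjusted p under 0.05. The THO complex genes THO1, at 1.05 (SE 0.333, adjusted p = 0.082), and TEX1, at 0.85 (SE 0.277, adjusted p = 0.088), had all cell arrays above those of nuclei. THO5, at 0.18 (adjusted p = 0.725), and THO7 (AT3G02950), at 0.08 (adjusted p = 0.942), had overlapping arrays. All cell arrays were higher also for ATO, a subunit of splicing factor SF3a, at 1.07 (SE 0.368, adjusted p = 0.105). ATO read 43.2, 42.2 and 56.2 in whole-embryo nuclei, each below its array's median, and 91.6, 101 and 167 in cells. It passed the filter only through the cell arrays, which favours high cell values. Nothing is therefore read from its difference or its lack of overlap. Cell arrays lay wholly above for 8 of the 54 and wholly below for 3, beside 13.4% and 15.2% of all probe sets. The count past the threshold was 4, all higher in cells, without whole-embryo cells replicate 1.

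**Figure D3:**
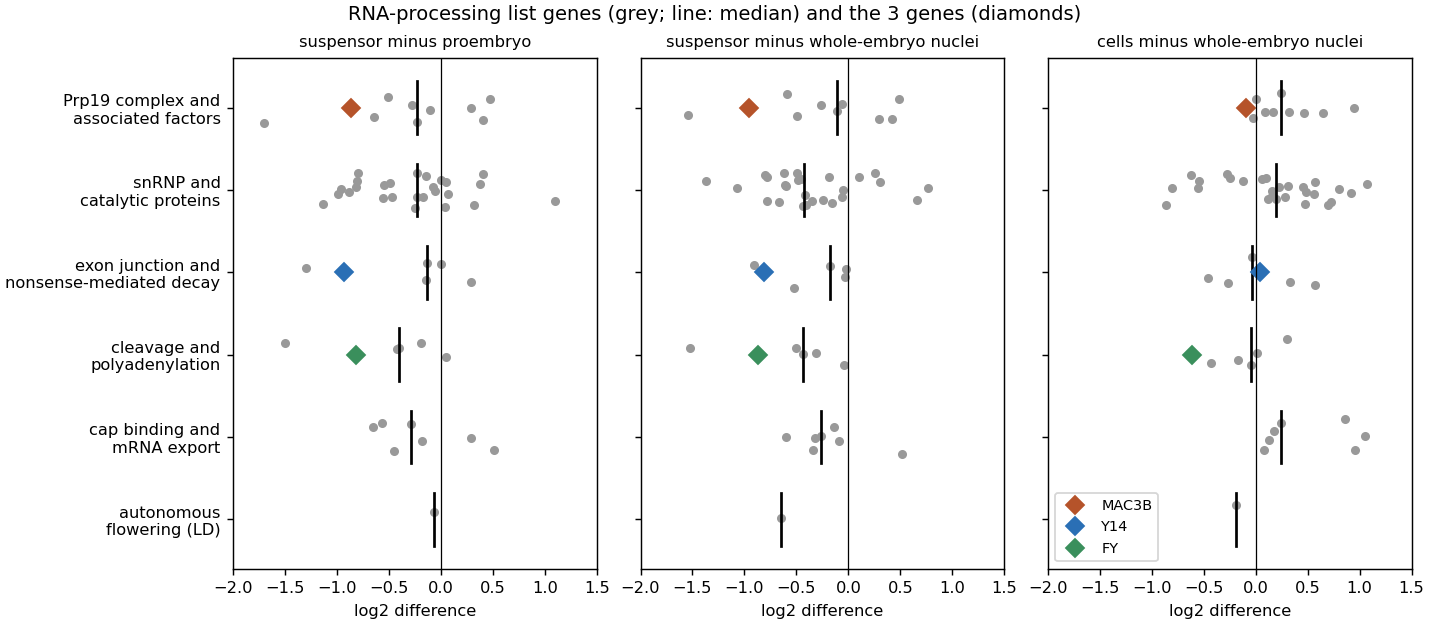
Log2 difference (x axis, on the log2(intensity + 16) scale) of the other RNA-processing list genes (grey points, 1 per gene, with a black line at each list's median) and of MAC3B, Y14 and FY (diamonds), by list (y axis), in 3 comparisons. In both suspensor panels the diamonds lie left of their list's median and most grey points lie below 0, and in the right panel MAC3B and Y14 lie near 0 with FY at -0.61.

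Of the control measures given here, only the actin ratio set the suspensor arrays apart from every other group. The log2 3′ to 5′ ratio of the actin control, a sign of how complete the labelled RNA is, was 3.25 to 3.75 in suspensor nuclei, 4.31 to 4.53 in proembryo nuclei, 4.38 to 4.71 in whole-embryo cells and 4.01 to 4.56 in whole-embryo nuclei. The ubiquitin ratio was 4.48 to 5.51 in suspensor nuclei and 4.48 to 4.55 in proembryo nuclei, and the GAPDH ratio was 6.25 to 6.81 in suspensor nuclei and 5.78 to 7.31 in proembryo nuclei. The part of these ratios in the differences of MAC3B, Y14 and FY was not tested. The mean log2 level of the hybridisation controls ranged from 11.14 to 13.66 in suspensor nuclei and from 11.43 to 12.38 in proembryo nuclei. With that level as a covariate the suspensor minus proembryo differences were -0.84 for MAC3B, -0.95 for Y14 and -0.87 for FY. The level did not overlap between whole-embryo cells (11.26 to 11.56) and whole-embryo nuclei (11.60 to 12.67). With it as a covariate, 7 probe sets passed by limma in cells against whole-embryo nuclei, against 803 without it.

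The tissue labels could be checked only in part. None of the 5 suspensor markers and none of the 5 proembryo markers listed has a named probe set here. Of 13 markers of endosperm and seed coat, 3 were measured, AGL62, AGL80 and BAN, and none was listed at 0. BAN is an enzyme of tannin synthesis in the seed coat. It read 7828 to 11449 in suspensor nuclei, 4435 to 7835 in proembryo nuclei, 4780 to 16697 in whole-embryo cells and 6403 to 7493 in whole-embryo nuclei. In the same order the endosperm marker AGL62 read 62.9 to 125, 29.6 to 115, 63.3 to 76.3 and 25.5 to 79.9. AGL80, also of endosperm, read 115 to 173, 25.3 to 167, 162 to 171 and 125 to 140. The part of seed coat or endosperm RNA in the suspensor values of the 3 genes was not tested.

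The suspensor differences of the 3 genes kept their sign under every alternative that was run. Leaving out each nuclei array in turn gave -0.97 to -0.78 for MAC3B, -1.21 to -0.79 for Y14 and -0.96 to -0.65 for FY in suspensor against proembryo nuclei. Y14 reached -1.21 without proembryo replicate 1, its dimmest proembryo array, and FY reached -0.65 without suspensor replicate 2, its dimmest array. Against whole-embryo nuclei the ranges were -1.01 to -0.85 for MAC3B, -0.87 to -0.75 for Y14 and -1.01 to -0.70 for FY. The sign is fixed in part by the choice of genes whose groups do not overlap, and many alternatives leave the compared means unchanged. The kept sign is thus no sign of stability. In cells against whole-embryo nuclei FY ranged from -0.76 to -0.36 when 1 array was left out, with limma adjusted p from 0.118 to 0.588. Over the other alternatives it ranged from -0.65 to -0.45, with limma adjusted p from 0.179 to 0.737.

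**Figure D4:**
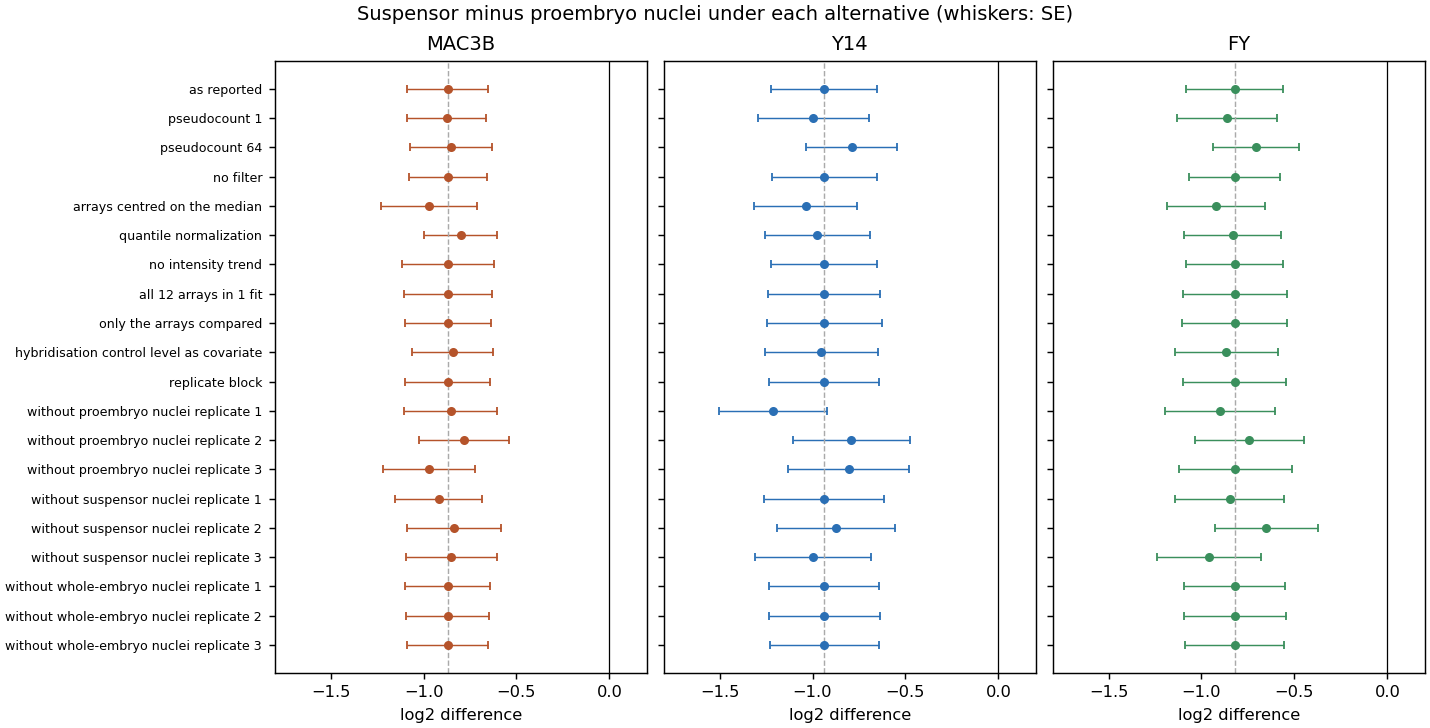
Suspensor minus proembryo log2 difference (x axis) of MAC3B, Y14 and FY as reported and under each alternative setting or left-out array (y axis), with whiskers for the standard error; the dashed line marks the reported value and the solid line 0. All points lie left of 0, and the farthest from the dashed line is Y14 without proembryo replicate 1, at -1.21.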

How the data were processed

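Nuclear or cellular RNA of 4 groups of 3 arrays was measured on the Affymetrix ATH1 array. Each deposited value is the intensity of 1 probe set on 1 array, on a linear scale. MAS5 and affy 1.32.1 are named in the submitters' processing notes, and what else was done is not given in the sources used here. The mean after trimming 2% at each end was close to 200.02 on every array, so nothing was rescaled. The number of arrays limits the precision.

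Of 22746 non-control probe sets, 13513 had 1 gene, 503 several and 8730 have no name here. Symbols came from the TAIR10.1 gene table by gene identifier, for 13436 probe sets and not for 77, and no coordinate was taken from it. After removal of 64 control probe sets, those above their array's median on at least 3 arrays of the fit were tested. Limma (version 3.58.1, under R version 4.3.3) was run on log2(intensity + 16), over the 9 nuclei arrays and, separately, over the 6 arrays of whole-embryo cells and nuclei. It used an intensity trend in eBayes, Benjamini-Hochberg adjustment and a threshold of 0.05. A run on simulated data checked only the sign and rough size of changes planted in bright probe sets. It set no condition on false calls. Python 3.11.15, pandas 2.3.3 and matplotlib 3.10.9 made names and plots.

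The members, lists and rules were chosen with earlier results of these data known. Named were the 3 genes, listed partners where measured, list genes past the threshold, and for each gene the 3 most correlated genes. A list gene with several probe sets is counted by its brightest. Same-numbered replicates did not deviate together (1 of 12 pairs over 0.1, range -0.14 to 0.106), so no pairing was used. Alternatives were the pseudocount, filter, centring, quantile normalization, intensity trend, arrays in the fit, control level, replicate block and each array left out.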

Additional observations from a re-analysis of the deposited data

How the results depend on the processing

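Of 216 alternative values of the 3 genes' differences, 9 had the other sign, 5 in proembryo against whole-embryo nuclei and 4 in cells against whole-embryo nuclei. The 5 came from leaving out 1 array, with ranges of -0.17 to 0.02 for MAC3B, -0.02 to 0.40 for Y14 and -0.13 to 0.03 for FY. No suspensor difference changed sign. Y14 against whole-embryo nuclei was -0.67 with a pseudocount of 64 and -0.91 with arrays centred on the median. That centring moved the median of all probe sets to -0.11 there, and to 0.14 in cells against nuclei, where MAC3B became 0.039. Leaving out 1 array gave MAC3B -0.27 to 0.01 in that comparison, with 4.42e-05 without whole-embryo cells replicate 1 and 0.012 without whole-embryo nuclei replicate 2, and Y14 -0.20 to 0.28, with the lowest value without cells replicate 3. The cause was not tested.

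List genes past the threshold in suspensor against proembryo nuclei numbered 1 with a pseudocount of 64 and 0 to 3 with 1 array left out, with 3 without suspensor replicate 1 and 1 without whole-embryo nuclei replicate 3. Against whole-embryo nuclei there were 0 with median centring, without the intensity trend and with all 12 arrays in 1 fit, and 0 to 3 with 1 array left out. In cells the range was 0 to 4. With the replicate number as a block, although the numbers do not pair the samples, 1 list gene passed in suspensor against proembryo nuclei, and 6 of 24 checks found an array closest to its own number. Counts over all probe sets ran from 17 to 421, against 260, in suspensor against proembryo nuclei, from 9 to 309, against 199, in suspensor against whole-embryo nuclei, and from 7 to 1287, against 803, in cells against nuclei. The count of 7 came with the hybridisation control level as a covariate.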
